A study of Solanum lycopersicum with 24 samples.

Results

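A cluster of terpene genes on tomato chromosome 8 was followed in the gland cells of type VI leaf trichomes, the hairs that store most of the leaf's monoterpenes. Its 5 members were taken by locus number, out of 34725 gene models in the count tables: TPS18 (Solyc08g005640), a cytochrome P450 gene (Solyc08g005650), TPS19/20 (Solyc08g005670), NDPS1 (Solyc08g005680) and TPS21 (Solyc08g005720). All 5 had reads in at least 1 library, and 4 passed the filter on low counts and were tested, with at least 993 counts of each in every library. The P450 gene did not pass.

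The plants were the anthocyanin free mutant af of Solanum lycopersicum and its complemented lines CHI4 and CHI9, labelled as complemented lines #4 and #9, so every group carried the af background. By general knowledge af lacks a working chalcone isomerase, a flavonoid enzyme. Each complemented group is a single line, and the labels do not say which promoter drives the introduced gene or how many plants went into a sample. Plants were grown in soil for 5 weeks at 28 °C and a light level of 250 µE. Each genotype was collected at 4 sampling times that the labels number 1 to 4, which gave 12 libraries, each sequenced on 2 lanes whose counts were summed. The labels do not say whether collections came from separate plants, so p-values measure the spread between these samples.

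In this trichome the monoterpenes are built from neryl diphosphate, the cis form of the usual geranyl precursor. NDPS1 is the cis-prenyltransferase that makes it in plastids, and TPS20 turns it into beta-phellandrene and related monoterpenes. TPS19 is a near-identical neighbour of TPS20, and both names go with 1 locus number here, so the level of either gene alone is uncertain. TPS21 works on a longer cis-prenyl diphosphate and makes the diterpene lycosantalene. Cytochromes P450 oxidise such products, and TPS18 belongs to the same terpene synthase family. The names come with the locus numbers and could not be checked by identifier. The reference table used here for names (RefSeq, assembly SLM_r2.1) lists NDPS1 as a synonym of CPT1 and TPS19 as a synonym of PHS1, both on chromosome 8, with the span of PHS1 inside that of CPT1. No gene length was at hand, so levels are compared between samples. Shares and ratios of counts between genes also depend on gene length, and are read only as differences between samples.

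Libraries held 8.99 M to 70.9 M counts (median 39.4 M). CHI9 replicate 2 was the shallowest. The lanes of af replicate 4 were uneven, with 0.45 counts in lane 2 for each count in lane 1. Over the 4 tested members this ratio was 0.389 (TPS21) to 0.429 (TPS18) in that library. CHI4 replicate 4 also had lanes that differed more than those of the other libraries (chi-square per degree of freedom 5.69, against 1.87 to 2.21 in the other libraries and 8.15 in af replicate 4). Type VI marker transcripts were abundant in all libraries, with TPS12 and MYC1 summing to 2845 to 3720 CPM (counts in each 1e6, scaled by TMM) in af and 8932 to 12372 CPM in the lines, of which TPS12 was called lower in af and MYC1 was not (called higher with no scaling). Of 3 Rubisco small subunit genes, taken as green leaf markers, none was at 0, 1 was called lower in af and their sum was 227 to 306 CPM in af and 334 to 422 CPM in the lines. The 4 acylsugar acyltransferases, taken as markers of tip cells of other trichomes, summed to 9.76 to 21.8 CPM in af and 42.1 to 78.8 CPM in the lines, with none at 0 over all libraries and 1 of 3 tested called lower in af. Of all tested genes 13.6% were called lower in af. The part of these marker differences in the results was not tested. In such bulk samples, fewer cells of a type and less RNA per cell cannot be told apart.

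The first question was how far each transcript of the cluster was below its complemented level in the mutant. NDPS1, TPS19/20, TPS18 and TPS21 were all lower in af than in both complemented lines, by about 10-fold for NDPS1 and about 4-fold for TPS21, and no af library reached the lowest line library for any of them. Against the mean of the lines, 4 of 4 tested members were called lower (edgeR quasi-likelihood test, Benjamini-Hochberg adjusted over all 18326 tested genes), where 13.6% of all tested genes were called lower and 26.5% in either direction. Over all genes 2500 were lower and 2358 higher, but 1086 lower and 6616 higher with no scaling beyond the library total, which moved the median of all genes from 0.07 to 0.50. The members stayed lower there, with -2.92 for NDPS1, -2.38 for TPS19/20, -1.98 for TPS18 and -1.62 for TPS21. With the collection as a block 4 of 4 were lower too, beside 15.9% of all tested genes. Non-overlap in that direction was found for 8.68% of all tested genes. Against CHI4 alone and against CHI9 alone 4 of 4 were lower too, beside 11.2% and 11.6% of all tested genes. The comparisons with the lines share the af libraries. The 4 calls were kept without CHI9 replicate 2, af replicate 4 and CHI4 replicate 4 together, an alternative chosen after seeing the data.

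**Figure D1:**
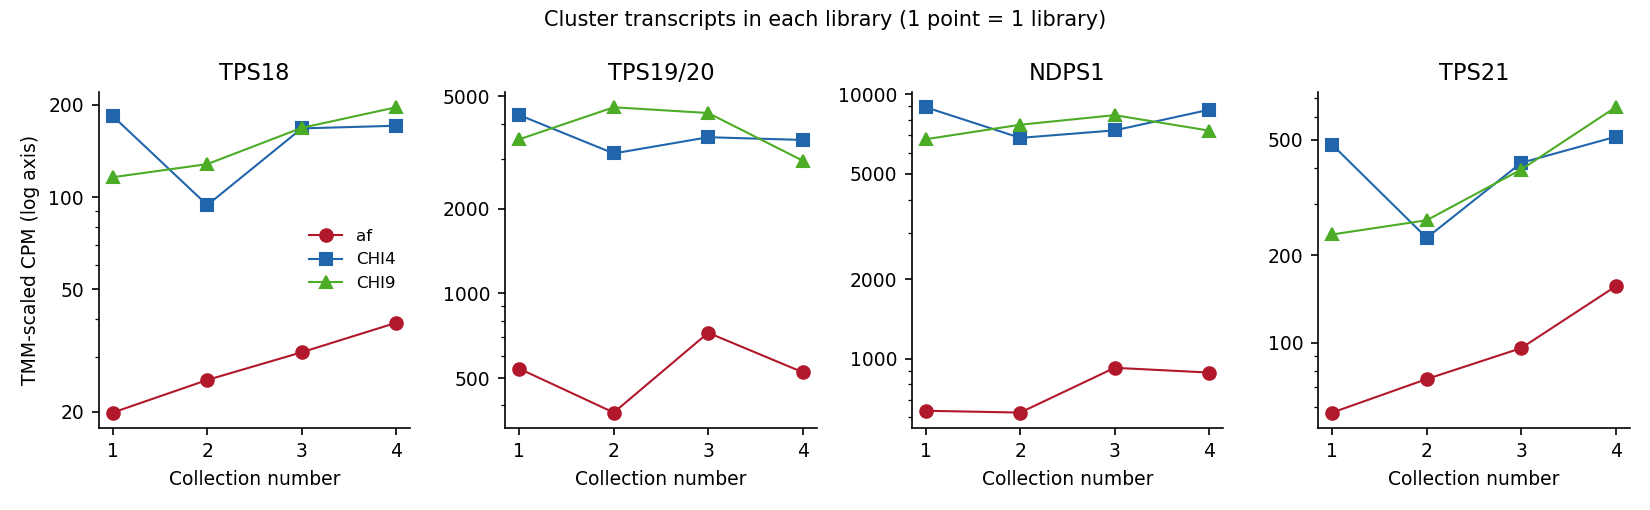
Levels of the 4 tested members, in CPM scaled by TMM on a log axis, against the collection number. Each point is 1 library, and lines join libraries of 1 genotype. Every af point lies below every CHI4 and CHI9 point, and the lines overlap each other in each panel.

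TPS18, first in locus order, had 19.8, 25.3, 31.2 and 38.9 CPM in af at collections 1 to 4. CHI4 had 184, 94.1, 167 and 171 CPM and CHI9 had 116, 128, 168 and 196 CPM at the same collections. The af libraries lay below all line libraries, while CHI4 and CHI9 overlapped. TPS18 fell by 2.42 on the log2 scale against CHI4 (SE 0.241, edgeR adjusted p = 1.7e-06) and by 2.40 against CHI9 (SE 0.241, edgeR adjusted p = 2.45e-06).

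The P450 gene Solyc08g005650 was at or near 0 throughout. It had 0 counts in all 4 af libraries, which allows up to 0.0166 CPM over the 180.4 M counts of the group, for counting error only. In the lines it had 21 counts in CHI4 replicate 3, split as 8 and 13 between the lanes, and 12 counts in CHI9 replicate 4, all from lane 2, with 0 in the other 6 line libraries. This transcript was therefore not compared between genotypes.

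TPS19/20, the phellandrene synthase locus, had 540.3, 378, 725 and 525 CPM in af at collections 1 to 4. The lines held 4293, 3137, 3582 and 3504 CPM in CHI4 and 3523, 4576, 4366 and 2959 CPM in CHI9. The highest af library, at collection 3, was thus far below the lowest line library, CHI9 at collection 4. TPS19/20 fell by 2.74 against CHI4 (SE 0.211, edgeR adjusted p = 3.2e-08) and by 2.83 against CHI9 (SE 0.212, edgeR adjusted p = 3.77e-08).

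NDPS1, which supplies the substrate of the phellandrene synthase, had the largest fitted difference of the 4 tested members. It had 635, 626, 924 and 886 CPM in af at collections 1 to 4, against 8938, 6846, 7309 and 8746 CPM in CHI4 and 6766, 7677, 8344 and 7293 CPM in CHI9. The spread among line libraries was small, with a coefficient of variation of 10.9% over the 8 (20.8% over the 4 in af). NDPS1 was 10.4-fold lower in af than in CHI4 (log2 difference -3.37, 95% interval -3.78 to -2.97, edgeR adjusted p = 1.04e-09) and 9.8-fold lower than in CHI9 (log2 difference -3.29, 95% interval -3.69 to -2.89, edgeR adjusted p = 1.46e-09). Against the mean of the lines its p ranked 5 among the 18326 tested genes, and its fall ranked 76 by size.

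TPS21, the lycosantalene synthase at the other end of the cluster, had 57.3, 74.8, 95.6 and 156 CPM in af at collections 1 to 4. CHI4 had 481, 229.8, 417 and 513 CPM and CHI9 had 236, 264, 395 and 648 CPM. Its groups came closest of the 4 members to touching, with 156 CPM in the highest af library and 229.8 CPM in the lowest line library. It also varied most within genotypes, with a coefficient of variation of 44.9% in af, 30.9% in CHI4 and 48.8% in CHI9. TPS21 fell by 2.10 against CHI4 (SE 0.393, edgeR adjusted p = 0.00242) and by 2.01 against CHI9 (SE 0.392, edgeR adjusted p = 0.0032).

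The complemented lines were then set against each other. Of the 4 tested members 0 differed between CHI9 and CHI4 (edgeR quasi-likelihood, where 0.0928% of all tested genes were called), 0 at an unadjusted p under 0.05 and 0 by DESeq2 or limma-voom. The CHI9 minus CHI4 log2 difference was -0.08 for NDPS1 (95% interval -0.45 to 0.29), 0.09 for TPS19/20 (-0.33 to 0.50), -0.02 for TPS18 (-0.50 to 0.46) and -0.09 for TPS21 (-0.91 to 0.73). The intervals leave room for differences of up to these bounds, which are widest for TPS21.

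**Figure D2:**
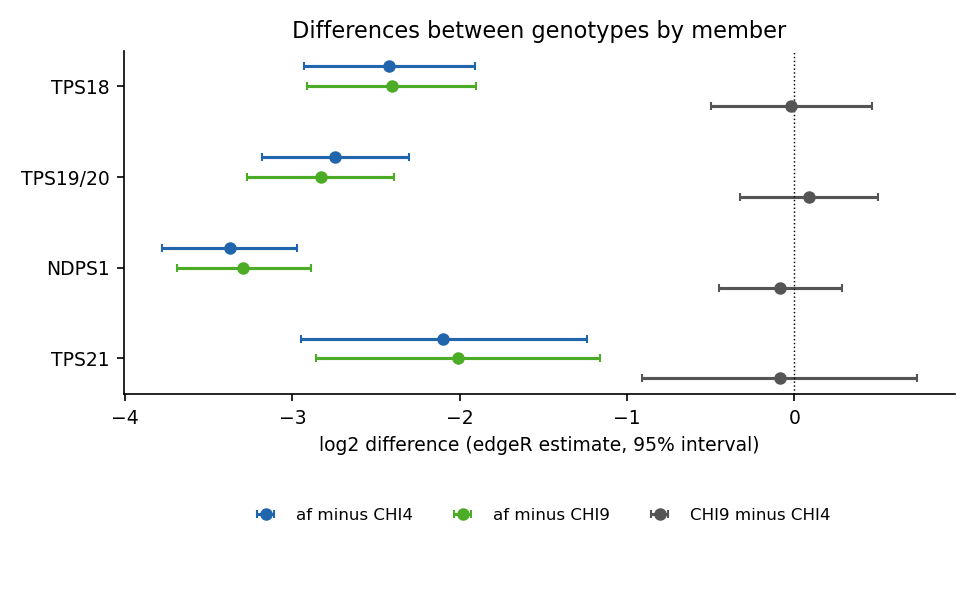
Fitted log2 differences of af minus CHI4, af minus CHI9 and CHI9 minus CHI4 for the 4 tested members, with 95% intervals from edgeR's quasi-likelihood fit of all 12 libraries. All intervals of af against a line lie below 0, from -3.78 to -1.16 at their extremes, and all intervals of CHI9 minus CHI4 cross 0.

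As a share of all gene counts, with no scaling, the 5 members together took 0.158%, 0.142%, 0.195% and 0.197% in the 4 af libraries. In CHI4 the share was 1.20%, 0.984%, 0.979% and 1.11%, and in CHI9 1.05%, 1.19%, 1.16% and 1.03%. The af mean was 0.173% ± 0.0273 (SD, n = 4). The mean of the 8 line libraries was 1.09% ± 0.0900 (SD), 6.29 times as much (two-sided exact permutation p = 0.00202, the smallest that the arrangements of 4 among 12 libraries allow). With arrangements only within collections p was 0.0123, the smallest that 81 arrangements allow. NDPS1 made up 50.7% to 56.7% of the cluster's counts in af libraries and 60.7% to 67.6% in line libraries.

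Whether the members differed by equal amounts was asked of the ratio of their counts to those of NDPS1 within each library, which needs no scaling between libraries. For each 100 NDPS1 counts, af libraries held 3.74 ± 0.587 TPS18 counts (SD, n = 4) and line libraries 1.97 ± 0.403 (SD, n = 8). The ratio of TPS18 to NDPS1 was 1.91 times as high in af (two-sided exact permutation p = 0.00202, adjusted p = 0.00303 over 3 ratios, higher in 4 of 4 af libraries than in any line library). For TPS21 the af libraries held 12.2 ± 3.79 counts per 100 of NDPS1 (SD, n = 4), and the line libraries held 5.11 ± 1.85 (SD, n = 8). This ratio was 2.44 times as high in af (exact permutation p = 0.00202, adjusted p = 0.00303), and here too the groups did not overlap, with 9.02 in the lowest af library and 8.89 in the highest line library, CHI9 replicate 4. TPS18 and TPS21 were thus less reduced in af than NDPS1. The fall of NDPS1 ranked 76 by size among the 18326 tested genes, so most genes were less reduced than NDPS1. For most genes a higher ratio to NDPS1 in af was therefore set in advance. The abundant neighbours Solyc08g005630 and Solyc08g005710, described below, also gave exact permutation p = 0.00202. These p-values and the lack of overlap thus do not set TPS18 and TPS21 apart from other genes. The share of all genes whose ratio to NDPS1 did not overlap was not computed.

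For TPS19/20 the gap was smaller. Per 100 NDPS1 counts it had 85.0, 60.4, 78.5 and 59.2 counts in af at collections 1 to 4, against 48.0, 45.8, 49.0 and 40.1 in CHI4 and 52.1, 59.6, 52.3 and 40.6 in CHI9. The ratio was 1.45 times as high in af (exact permutation p = 0.00404, also 0.00404 adjusted over 3 ratios), but af replicate 4 at 59.2 lay within the range of CHI9. Against CHI9 alone the log2 difference of this ratio was 0.46 with an adjusted exact permutation p of 0.0571. The limit given for the p-values of TPS18 and TPS21 holds for this ratio too.

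**Figure D3:**
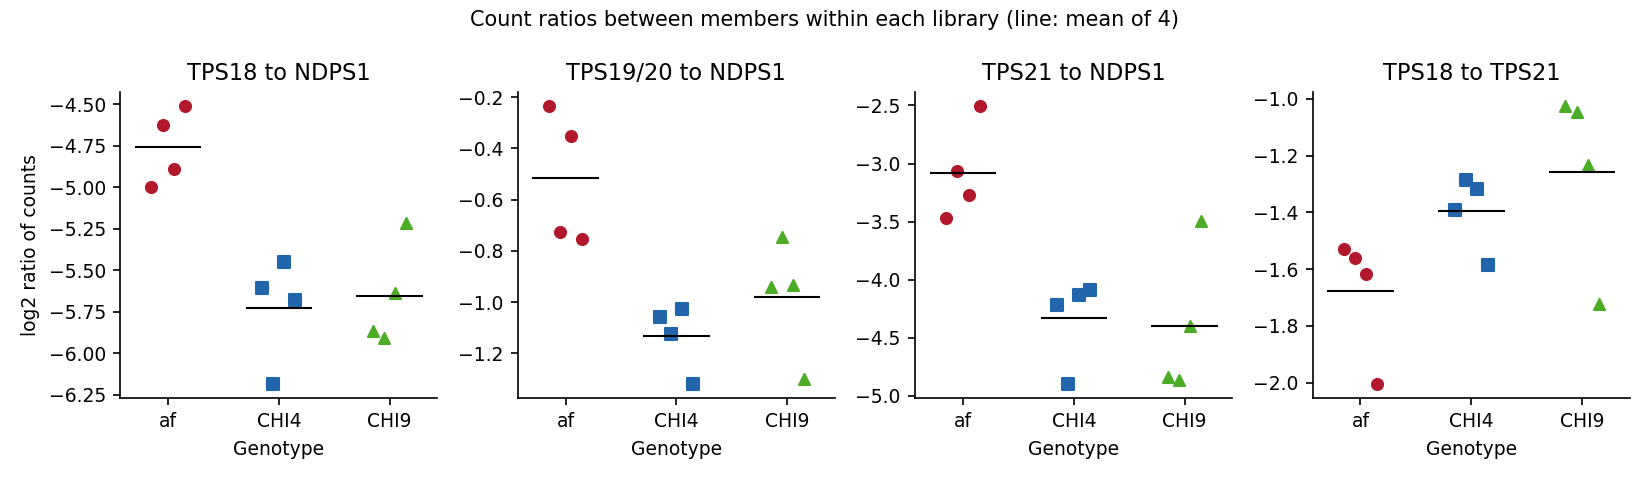
The log2 ratio of counts of TPS18, TPS19/20 and TPS21 to NDPS1, and of TPS18 to TPS21, in each library by genotype. Points are libraries and the black line is the mean of 4. The ratios of TPS18 and TPS21 to NDPS1 are higher in every af library than in any line library, while that of TPS18 to TPS21 overlaps between af and the lines.

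The other pairs of members, a comparison added after the data were seen, gave no call. The ratio of TPS18 to TPS21 had an af minus lines log2 difference of -0.35 (exact permutation p = 0.0343, adjusted p = 0.103 over 3 ratios, and adjusted p = 0.0369 with arrangements within collections and 0.0456 without CHI9 replicate 4). The ratio of TPS18 to TPS19/20 had 0.40 (exact permutation p = 0.174) and that of TPS21 to TPS19/20 had 0.75 (exact permutation p = 0.0949).

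Levels over the 4 collections were compared next, with genotype in the model. TPS21 differed between collections (edgeR quasi-likelihood joint F-test, adjusted p = 0.0398), and 1.93% of all tested genes were called. Its fitted log2 difference from collection 1 was -0.22 at collection 2 (SE 0.232), 0.36 at collection 3 (SE 0.230) and 0.95 at collection 4 (SE 0.233). In af and in CHI9 the level was highest at collection 4 and lowest at collection 1, while CHI4 was lowest at collection 2. TPS18 had adjusted p = 0.153 (unadjusted p = 0.00864), with 0.50 at collection 4 (SE 0.191). TPS19/20 had adjusted p = 0.604 and NDPS1 adjusted p = 0.679, and their af libraries were highest at collection 3.

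The collection call for TPS21 rested on several single libraries. Its adjusted p was 0.112 without af replicate 3, 0.181 without af replicate 4, 0.0828 without CHI4 replicate 3, 0.1 without CHI9 replicate 2, 0.0911 without CHI9 replicate 3 and 0.198 without CHI9 replicate 4. For TPS18 it was 0.00325 without CHI4 replicate 1 and 0.00579 without the filter on low counts. Whether the collections moved TPS21 more than NDPS1 was asked of their ratio, with collection labels permuted within genotypes, a test added after the data were seen. It gave p = 0.066 (exact permutation, 13824 arrangements, adjusted p = 0.177 over 3 ratios). The ratios to NDPS1 of TPS19/20 (adjusted p = 0.177, and 0.0208 without CHI9 replicate 2) and of TPS18 (adjusted p = 0.318) did not pass that exact permutation test either.

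The gap between af and the lines was present at each collection, where there is 1 library per genotype and so no test. NDPS1 in the mean of the lines was 12.4 times its af level at collection 1, 11.6 times at collection 2, 8.47 times at collection 3 and 9.05 times at collection 4. For TPS19/20 these values were 7.23, 10.2, 5.48 and 6.15 times. For TPS18 they were 7.55, 4.38, 5.37 and 4.71 times, and for TPS21 6.26, 3.3, 4.25 and 3.72 times. NDPS1 thus had the widest gap of the 4 at each of the 4 collections. The lines did not keep 1 order, since CHI9 was below CHI4 for NDPS1 and TPS19/20 at collections 1 and 4 and above it at collections 2 and 3.

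The loci next to the members were then described in the same comparison. The window took the 4 loci between TPS18 and TPS21 that are no members and the 10 rows of the table on each side, 24 loci in all, of which 6 had no count in any library and 13 were tested. Of these 13, 1 was lower and 1 higher in af (edgeR adjusted p under 0.05), where 13.6% of all tested genes were lower and 12.9% higher. In the blocked fit 4 of the 13 were lower, where 15.9% of all tested genes were. Their median log2 difference without the block was -0.10, against 0.07 over all tested genes. The members' own values, -3.33 to -2.05, all lay beyond the lowest neighbour, -1.38 at Solyc08g005770, which had a mean of 0.346 CPM and was not called.

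**Figure D4:**
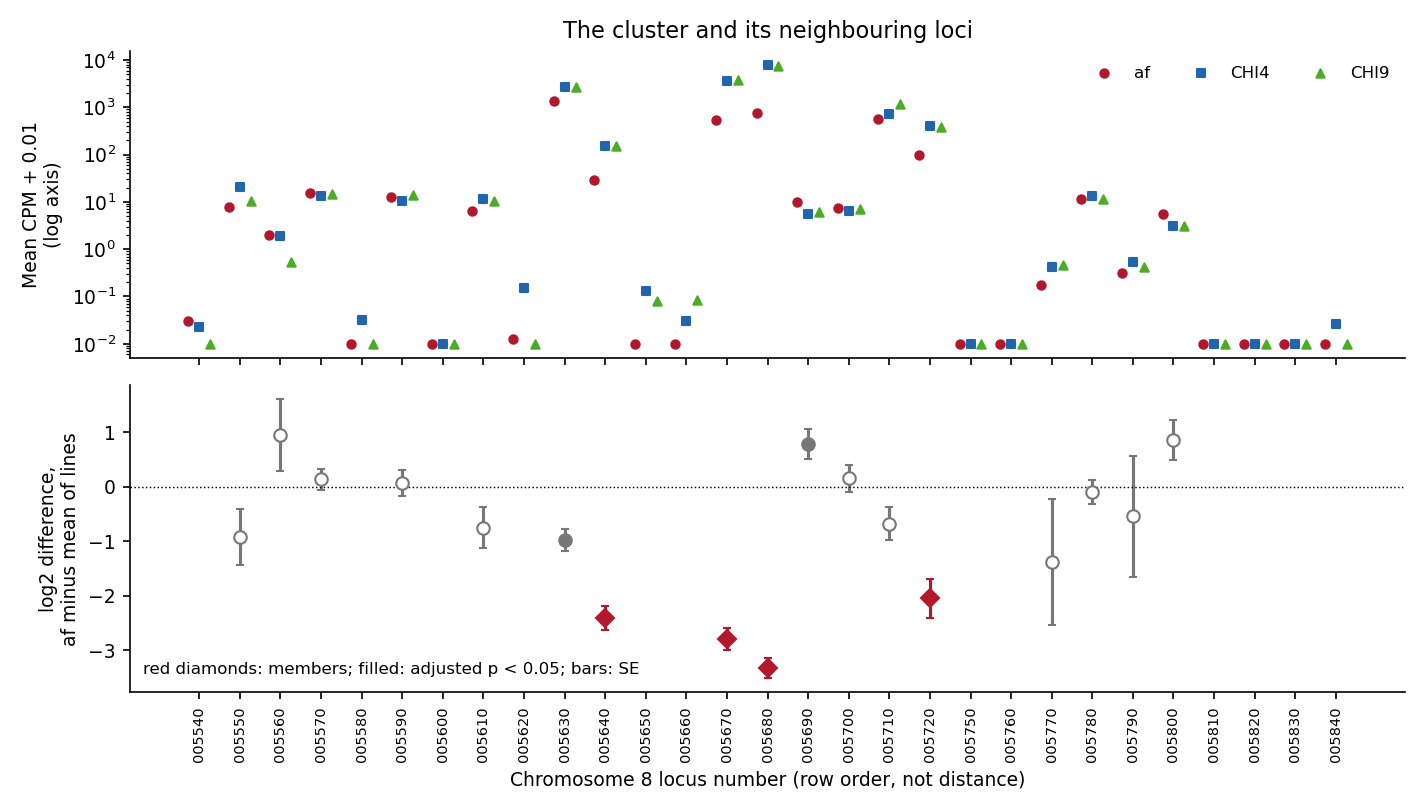
The members and their neighbouring loci in row order along chromosome 8. The upper panel gives the mean level per genotype in CPM plus 0.01 on a log axis, the lower the fitted log2 difference of af minus the mean of the lines with its SE. Red diamonds are members, and filled symbols passed the threshold. The 4 tested members lie between -3.33 and -2.05, and the 13 tested neighbours between -1.38 and 0.94.

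The locus directly before TPS18, Solyc08g005630, was abundant and was also lower in af, by a smaller amount than the tested members. It had 931, 1176, 1805 and 1529 CPM in af at collections 1 to 4, 2704, 2104, 3325 and 2618 CPM in CHI4, and 1826, 2305, 3471 and 3098 CPM in CHI9. The af libraries were below all line libraries, by 1805 against 1826 CPM at the nearest, as was found for 8.68% of all tested genes. It fell by 0.98 on the log2 scale (SE 0.203, edgeR adjusted p = 0.00123). Its ratio to NDPS1 was 5.13 times as high in af (exact permutation p = 0.00202, also 0.00202 adjusted over 2 neighbours chosen after their values were seen). Since NDPS1 itself had a log2 difference of -3.33, the ratio shows only that this locus fell less than NDPS1.

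Of the 3 loci between NDPS1 and TPS21, 0 were called lower in af with edgeR (1 with the collection as a block). Solyc08g005710, directly before TPS21, had 569 ± 219 CPM in af (SD, n = 4), 708 ± 194 CPM in CHI4 (SD, n = 4) and 1169 ± 555 CPM in CHI9 (SD, n = 4). Its log2 difference was -0.68 (SE 0.310, edgeR adjusted p = 0.128, but 0.00448 in the blocked fit), and the groups overlapped. Its ratio to NDPS1 was 6.44 times as high in af (exact permutation p = 0.00202, adjusted p = 0.00202). With NDPS1 itself at -3.33, this ratio too shows only a smaller fall than that of NDPS1, and no change of the locus itself. Solyc08g005690, directly after NDPS1, was called higher in the mutant. The af mean was 9.94 ± 3.58 CPM, that of CHI4 5.57 ± 0.631 CPM and that of CHI9 5.96 ± 2.53 CPM (SD, n = 4 each). Its log2 difference was 0.78 (SE 0.275, edgeR adjusted p = 0.0405), but against CHI4 alone the adjusted p was 0.0784 and against CHI9 alone 0.126. The number of neighbours called higher was 0 with lane 1 alone, 0 without any 1 of af replicates 1 and 3, CHI4 replicates 1, 3 and 4, and CHI9 replicates 2, 3 and 4, and 2 without CHI4 replicate 2. Solyc08g005700 had 0.15 (edgeR adjusted p = 0.709). The files pair none of these loci with a name, and the strand setting of the counting is not given, so reads of overlapping or antisense genes could not be told apart.

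Likeness of pattern was measured as the root-mean-square difference between log2 CPM profiles, each centred on its own mean over the 12 libraries, among 11783 other genes that averaged 5 CPM or more. This is a description in which the gap between af and the lines weighs most. TPS18 and TPS21, at the ends of the cluster, were each other's rank 2 (0.27), and NDPS1 had TPS19/20 at rank 2 (0.32). From NDPS1 the distance was 0.51 to TPS18 (rank 21) and 0.74 to TPS21 (rank 117). In the other direction NDPS1 was rank 5 for TPS19/20, rank 84 for TPS18 and rank 514 for TPS21. Outside chromosome 8, TPS12, the sesquiterpene synthase for caryophyllene and humulene, stood at rank 10 for both TPS18 (0.34) and TPS21 (0.43) and at rank 92 for NDPS1 (0.69). Of the pathway lists used below, TPS39 (rank 32, 0.53) and TPS17 (rank 50, 0.57) were nearer to NDPS1 than TPS12 was. DXR (rank 9, 0.42) was nearer to TPS21. The gene nearest to NDPS1 was Solyc03g111820, which the files do not name, at a distance of 0.20. It had 2196 ± 340.5 CPM in af (SD, n = 4), 21566 ± 2337 CPM in CHI4 (SD, n = 4) and 20182 ± 1834 CPM in CHI9 (SD, n = 4). The genes nearest to TPS18, TPS19/20 and TPS21 were 3 different loci of chromosome 7 with close locus numbers. They have no name in the data and lay at distances of 0.27, 0.29 and 0.27. The locus nearest to TPS21, Solyc07g016040, averaged 18.1 ± 4.12 CPM over the af libraries. It averaged 74.9 ± 22.6 CPM over those of CHI4 and 79.6 ± 30.6 CPM over those of CHI9 (SD, n = 4 each).

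The other steps of the pathway give the setting of the cluster. In the plastid methylerythritol phosphate (MEP) pathway, which makes the 5-carbon units that NDPS1 joins, 7 of 8 tested loci were lower in af, where 13.6% of all tested genes were lower (15.9% in the blocked fit, also for the lists that follow), with a median log2 difference of -1.29 against 0.07 over all tested genes. HDR, its last enzyme, fell by 1.58 (SE 0.15, edgeR adjusted p = 3.39e-07), and DXS1, one form of its first enzyme, had -0.29 (SE 0.122, edgeR adjusted p = 0.0907) and 0.14 with no scaling. Of 4 tested loci of isoprenyl isomerase and other prenyl diphosphate synthases 3 were lower (4 in the blocked fit), with a median of -1.26. Isomerase IDI (Solyc04g056390) fell by 1.17 (SE 0.143, edgeR adjusted p = 5.51e-06). Of 8 terpene synthases outside the cluster 7 were lower (8 in the blocked fit), with a median of -2.53. NDPS1 at -3.33 was further down than every MEP and prenyl locus of these lists, while TPS17, TPS33 and TPS3 outside the cluster had larger fitted falls, of which TPS3 had 0 counts in af. With TPS3 at its bound, 3 counts over the af group, the median of the 8 stayed at -2.53. These lists were chosen with results of these data known, so the counts are no independent evidence.

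Of 3 known regulators of trichomes or their terpenes 2 were higher in af and 0 lower (edgeR quasi-likelihood), where 12.9% of all tested genes were higher. MYC1, which drives terpene genes in type VI glands, had 677 ± 98.5 CPM in af (SD, n = 4), 661 ± 57.7 CPM in CHI4 (SD, n = 4) and 707 ± 49.98 CPM in CHI9 (SD, n = 4), with a log2 difference of -0.01 (SE 0.129, edgeR adjusted p = 0.956). With no scaling MYC1 had 0.41 (edgeR adjusted p = 0.0183), below the 0.50 by which the median gene differed there, and 3 of 3 regulators were called higher, where 36.1% of all tested genes were. EOT1, an activator of a terpene synthase promoter in tomato trichomes, was higher in af by 0.99 (SE 0.128, edgeR adjusted p = 1.04e-05). Woolly, a homeodomain factor of trichome formation, was higher too by 1.76 (SE 0.547, edgeR adjusted p = 0.0216), at a low level of 2.38 ± 0.506 CPM in af (SD, n = 4).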

How the data were processed

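The authors deposited raw counts per gene model, 1 file per lane (24 files, 12 libraries, 2 lanes each). Per the submitters' processing notes Trimmomatic, TopHat2, SAMtools and HTSeq were used. No version, option, build or annotation is stated in these notes or the labels. Values were checked to be whole numbers, and low counts from 1 to 10 were even in 63.2% to 70.8% of cases, so a fit with halved counts was an alternative. The 5 summary entries that name no gene were left out (reads in no gene 8.49% to 12.2%, ambiguous 3.67% to 6.68%, several alignments 4.68% to 7.56%).

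Lanes were summed. In R 4.3.3, edgeR 4.0.16 (filterByExpr defaults, TMM, robust quasi-likelihood, 3 genotypes in 1 fit) tested 18326 genes, with Benjamini-Hochberg adjustment over all of them and a threshold of 0.05. TMM factors lay between 1.1 and 1.28 for af and between 0.853 and 0.988 for the lines. SE is the log2 difference over the root of F. Printed CPM are TMM-scaled, except floors and bounds for counts of 0, which use library totals with no scaling. Log2 ratios of counts used a pseudocount of 0.5 counts. The planned adjustment over the ratios covers 3, since the P450 gene had too few counts. Floors take 3 counts and cover counting error only. Fits were tested on simulated data. A simulated log2 difference of 1 was recovered in 36% of genes (af against CHI4) to 50% (af against the mean of the lines). It was recovered in 42% for CHI9 against CHI4 and in 38% between collections. At -2 the share ran from 66% (CHI9 against CHI4) to 76% (af against CHI4). A gene that was not called may therefore still differ. DESeq2 1.42.0 and limma 3.58.1 served as alternatives.

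The labels give genotypes a shared sampling time, so same-numbered samples count as pairs. The fit behind the printed adjusted p-values has no collection term, and permutation tests are unpaired unless said otherwise. The collection as a block was an alternative. Deviations from genotype means correlated at -0.0394 to 0.184 within collections (median 0.109), against a median of -0.0324 for other pairs.

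Members, lists and tests were chosen with earlier results of these data known. Named genes are the members, called neighbours with a mean of at least 5 CPM, list members and, of the nearest genes by pattern, members, list members and at most 2 other loci. Solyc08g005700, Solyc08g005710 and Solyc08g005770 were named after their values were seen. None of the locus numbers matched the 41476 genes of the reference table by identifier (0 matches), so names of genes outside the cluster come from general knowledge.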

Additional observations from a re-analysis of the deposited data

Results flagged for a closer look

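The log2 ratio of TPS21 to NDPS1 counts was -4.90 in CHI4 replicate 2, while the other 3 CHI4 libraries lay between -4.21 and -4.09. The gap to the nearest of them was 0.848 of the group's range. Of 39 groups of 4 libraries tested this way 1 was flagged, and chance flags about 1 in 20.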

How the results depend on the processing

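The calls of TPS18, TPS19/20, NDPS1 and TPS21 as lower in af, against the mean of the lines and against each line, kept their direction and stayed past the threshold under every alternative run: DESeq2, limma-voom, RLE scaling, no scaling, no filter on low counts, the collection as a block, either lane alone, halved counts, only the compared groups in the fit, each library left out, and the 3 libraries that stand apart left out together (added after seeing the data). The log2 difference against the mean of the lines ran from -3.43 to -2.92 for NDPS1, -2.96 to -2.38 for TPS19/20, -2.60 to -1.98 for TPS18 and -2.40 to -1.62 for TPS21. With the collection as a replicate block NDPS1 had -3.35 (adjusted p = 1.4e-12) and TPS21 -2.07 (8.39e-07), and the block changed no call of a member. The exact permutation test of the cluster's share within collections had the smallest p its 81 arrangements allow.

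The count of members that differed between collections was 1, and it was 2 without the filter on low counts, 0 in the lines alone, 0 without the 3 libraries that stand apart, and 0 to 2 with each library left out. Among neighbours 1 was called higher in af, where 12.9% of all tested genes were, and 3 with no scaling, where 36.1% were. The number of neighbours called higher was 0 with lane 1 alone, 0 without those 3 libraries and 0 to 2 with each library left out. Neighbours called lower were 1, 4 with the collection as a block (4 of 13, where 15.9% of all tested genes were lower) and 1 to 2 with each library left out (2 without af replicate 3, CHI4 replicate 3 or CHI9 replicate 1). The cause of these changes was not tested. The ratio of TPS19/20 to NDPS1 passed under the other alternatives but not against CHI9 alone (0.46, adjusted p = 0.0571). That of TPS18 to TPS21 passed with arrangements within collections (-0.35) and ran from -0.41 to -0.24 with each library left out. The adjusted p of the collection test of the TPS19/20 to NDPS1 ratio ran from 0.0208 to 0.46 in the same way. The P450 gene had 0 counts in 10 of 12 libraries, the deepest among them, and a count of 0 allows from 0.0423 CPM in the deepest library to 0.334 CPM in the shallowest.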
